A study of Homo sapiens with 12 samples.

Results

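Collagens are the proteins that bear most of the load of the extracellular matrix. Each is a trimer of chains wound into a triple helix, and the helix needs glycine at regular steps along each chain, the Gly-X-Y repeat. Fibrillar collagens (types I, II, III, V, XI, XXIV and XXVII) form the ropes of connective tissue, type IV forms the sheet of basement membranes, and the other types decorate fibrils, form beaded filaments or span the cell membrane. Normal brain holds little fibrillar collagen outside the meninges and vessel walls, and glioblastoma cells of a mesenchymal type make more of it.

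The collagen genes were taken as all protein-coding intervals of the count table named COL, a number, A and a number. Of the 49731 intervals in the table, 44661 gene intervals were kept, 43 of them of collagen genes. In the full table the rule found 44 genes, each with a single interval, and it used no measured value. By textbook class, 11 were fibrillar, 6 were type IV (basement membrane) and 27 were others: 10 fibril-associated collagens with interrupted helices (FACIT), 5 beaded filament chains, 4 transmembrane collagens, 3 short-chain network collagens, 2 multiplexins, 1 anchoring fibril collagen and 2 outside these classes. They were measured by RNA sequencing in A172, an established human glioblastoma cell line that grows as adherent cells, labelled wild type. Of 12 libraries, 4 came from cells given siRNA-2 against uc.110, 4 from cells given siRNA-1 against uc.110 and 4 from cells given a scrambled control siRNA, so all groups share the transfection. uc.110 is 1 of 481 ultraconserved genome regions in the table, and the study asked which genes change when it is knocked down. On day 1, cells in 6-well plates received siRNA (3 µL of a 20 µM stock) with a Lipofectamine reagent (9 µL), left on for 6 h, and RNA was taken on day 2. Separate cultures are not stated for the libraries of a group. The p-values therefore describe the spread among these libraries only, which may be technical.

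Library totals ran from 43328295 to 53611486 counts. The uc.110 interval itself held 0 to 4 reads per siRNA-2 library (7 in all), 0 to 2 per siRNA-1 library (5 in all) and 0 to 6 per scrambled library (11 in all), too few to check the knockdown at this depth. All 15 type I interferon response genes were called higher in siRNA-2 cells (median log2 fold change 2.81) and in siRNA-1 cells (median 2.34) than in scrambled cells. Scrambled replicate 1 stood apart from its group: it was the highest scrambled library for 15 of 15 of these genes, with a median ratio of 2.03 to its group's other libraries. In 1559 intervals it was the lone library with reads, while the others had 86 to 167 such intervals. The ribosomal RNA interval with the most reads was taken as a share of its own and the kept counts. This share was 5.59% in siRNA-1 replicate 3, against 0.584 to 1.32% in the other siRNA-1 libraries. In siRNA-2 replicate 2 it was 3.05%, against 1.09 to 1.55% in the other siRNA-2 libraries. Pairs of siRNA-1 replicate 3 with the other siRNA-1 libraries differed the most of all replicate pairs, by a chi-square of 9.73 to 11.1 per gene. Without siRNA-1 replicate 3, 15 collagen genes were called higher and 6 lower in siRNA-2, and 18 higher and 6 lower in siRNA-1. Of all 25654 intervals tested in that run, 7586 were higher and 6582 lower in siRNA-2, and 6820 and 5846 in siRNA-1. Of 9 glial and glioma markers, S100B and AQP4 failed the count filter, and the summed level of the list was 3080 to 3261 CPM in siRNA-2, 2664 to 2983 CPM in siRNA-1 and 3547 to 3890 CPM in scrambled libraries. The sum was lower with both siRNAs while more of its 7 tested genes were called higher than lower: 4 higher and 2 lower in siRNA-2 (median log2 fold change 0.26), and 3 higher and 2 lower in siRNA-1 (median 0.23). The 6 fibroblast and pericyte markers summed to 537 to 585 CPM in siRNA-2, 700 to 785 CPM in siRNA-1 and 611 to 687 CPM in scrambled libraries. Of these, 1 was called higher and 1 lower in siRNA-2 (median 0.01), and 2 higher and 3 lower in siRNA-1 (median -0.34). Of 8 hematopoietic and endothelial markers, PTPRC and AIF1 were not analysed here. The other 6 summed to 154 to 185 CPM in siRNA-2, 71.9 to 87.5 CPM in siRNA-1 and 42.1 to 50.6 CPM in scrambled libraries, with 1 called higher and 1 lower in siRNA-2, and 2 higher and 1 lower in siRNA-1. The 4 epithelial markers summed to 23.2 to 30.4 CPM in siRNA-2, 26.5 to 42.1 CPM in siRNA-1 and 12.6 to 20.9 CPM in scrambled libraries, with 2 called higher and 1 lower in siRNA-2, and 2 higher and 0 lower in siRNA-1. The 5 neuron and oligodendrocyte markers in the table summed to at most 5.73 CPM in any library. Beside these marker counts, 56.1% of all intervals were called in either direction in siRNA-2 and 53.5% in siRNA-1. The part of all these differences between libraries and groups in the collagen results was not tested.

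Levels below are CPM, read counts scaled to a common library size, using edgeR's TMM normalization, given for replicates 1 to 4 in order. Fold changes are on the log2 scale with their SE, each over 4 libraries per group, and an adjusted p comes from edgeR's quasi-likelihood test, adjusted by Benjamini-Hochberg over 25194 intervals. A gene was called higher or lower at an adjusted p under 0.05. An interval spans a whole gene with its introns, and reads are not told apart by strand, so a gene shares reads with whatever overlaps it. In these bulk libraries, more cells with a transcript and more transcript per cell cannot be told apart.

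Of the 44 genes, 39 passed the filter on low counts. COL2A1, the cartilage fibril chain, had 2 to 6 reads per siRNA-2 library, 0 to 5 per siRNA-1 library and 1 to 16 per scrambled library. The FACIT genes COL9A1, COL20A1 and COL22A1 had at most 0, 9 and 0 reads per siRNA-2 library, at most 3, 13 and 3 per siRNA-1 library and at most 6, 7 and 29 per scrambled library. The COL11A2 interval runs from 4357098 to 33193009 on chromosome 6, far beyond the gene, so its 6987900 reads do not measure COL11A2 and were not used.

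In siRNA-2 cells, 14 of 39 collagen genes were called higher and 6 lower than in scrambled cells, where 30.0% and 26.2% of all 25194 intervals were called higher and lower. In siRNA-1 cells, 18 of 39 were called higher and 6 lower, against 28.6% and 24.8% of all intervals. The median fold change of the 39 genes was 0.07 in siRNA-2 and 0.12 in siRNA-1, against 0.01 over all intervals in both comparisons. The 4 siRNA libraries lay wholly to one side of the 4 scrambled libraries for 16 of 39 genes with siRNA-2, against 51.9% of all intervals, and for 21 of 39 with siRNA-1, against 47.5%. Both comparisons use the same scrambled libraries. Between the siRNAs, 8 of 39 genes were called higher and 14 lower in siRNA-2 than in siRNA-1 cells, against 15.8% and 16.9% of all intervals, and the libraries did not overlap for 17 of 39, against 32.0%. Every collagen gene is protein-coding, and of 15222 protein-coding intervals, 35.1% were called higher in siRNA-2 and 35.0% in siRNA-1, while 4643 were called lower in siRNA-2 and 4265 in siRNA-1. The 14 of 39 collagen genes called higher in siRNA-2 are near the 35.1%. Next, 13 tested genes were set aside that overlap a protein-coding gene, or partly overlap an interval with a large share of their reads. That share was 11.9% or more in the genes set aside for it. Partial overlaps of the genes that stayed in held at most 6.76%. The reads shared were not counted. This left 26, of which 9 were called higher and 4 lower in siRNA-2, and 11 higher and 5 lower in siRNA-1. COL4A2 and COL19A1 stayed in, although COL4A2-AS1 and COL4A2-AS2 lie within COL4A2 and COL9A1 overlaps COL19A1.

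**Figure D1:**
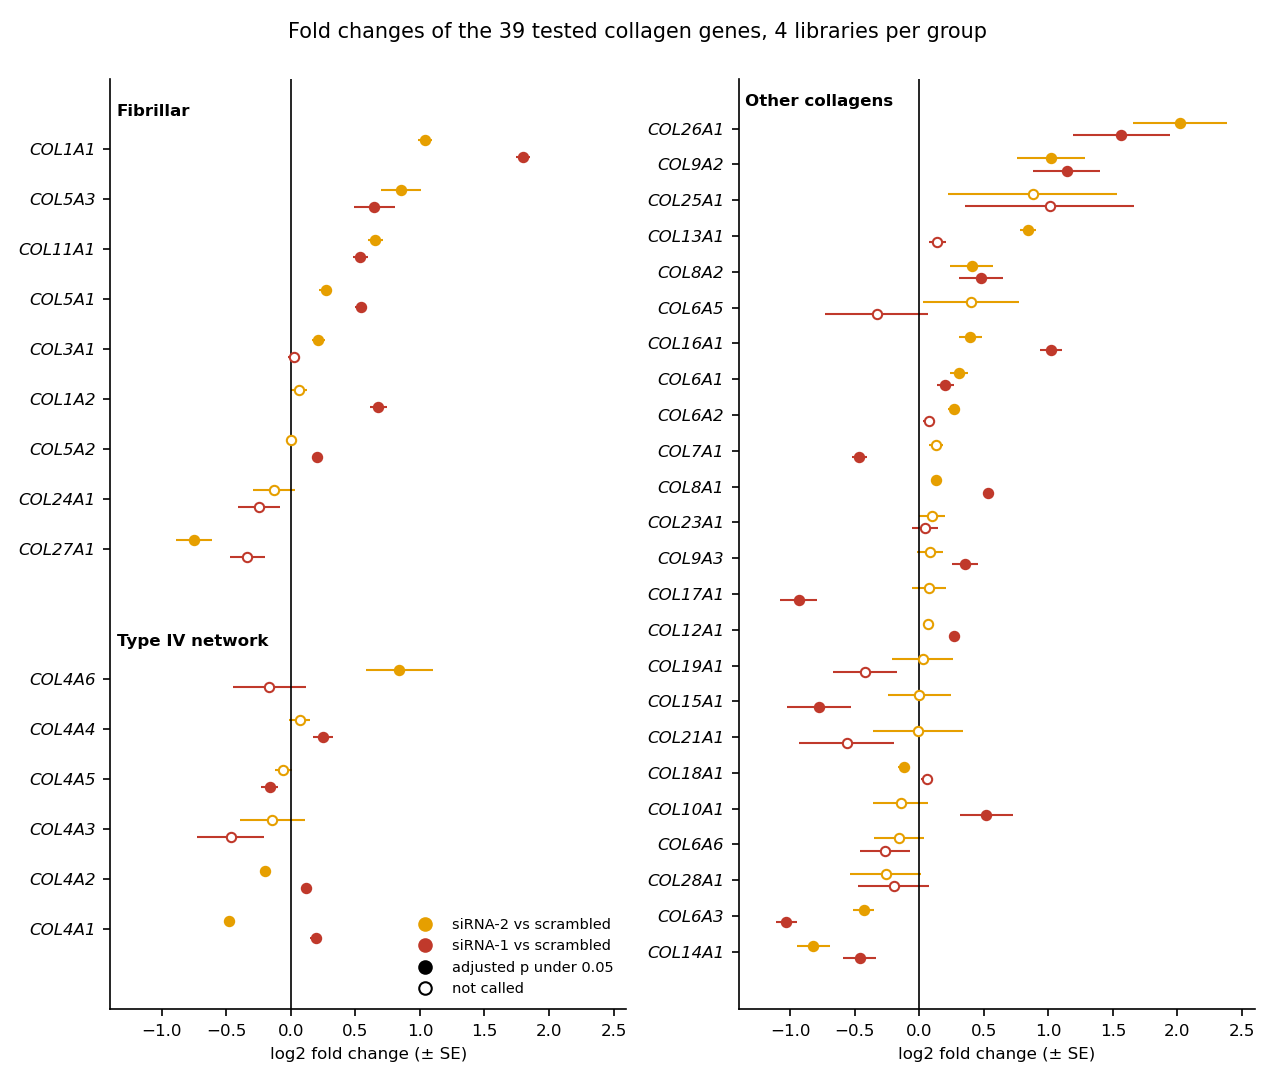
log2 fold changes (x axis, ± SE) of the 39 tested collagen genes, with siRNA-2 in orange and siRNA-1 in red, each against scrambled, 4 libraries per group; filled points have an adjusted p under 0.05. COL1A1 stands farthest right among fibrillar genes at 1.04 with siRNA-2 and 1.80 with siRNA-1, and COL4A1 and COL4A2 lie left of 0 with siRNA-2 and right of 0 with siRNA-1.

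The 3 classes differ in the protein itself. Translated from the GENCODE 29 coding sequences, the longest unbroken Gly-X-Y run had 216 to 343 triplets in the 11 fibrillar chains, with a median of 338, and 2 or 3 runs of at least 5 triplets per chain. The shortest belonged to COL24A1 (216) and COL27A1 (217). The 6 type IV chains had a longest run of 38 to 66 triplets and 22 to 27 separate runs, the interruptions that let the sheet bend. The other 27 chains ranged from 23 triplets in COL26A1 to 113 in COL9A1, COL9A2, COL9A3, COL21A1 and COL22A1. COL7A1, the anchoring fibril chain, had the most triplets in all, 474 in 20 runs.

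**Figure D2:**
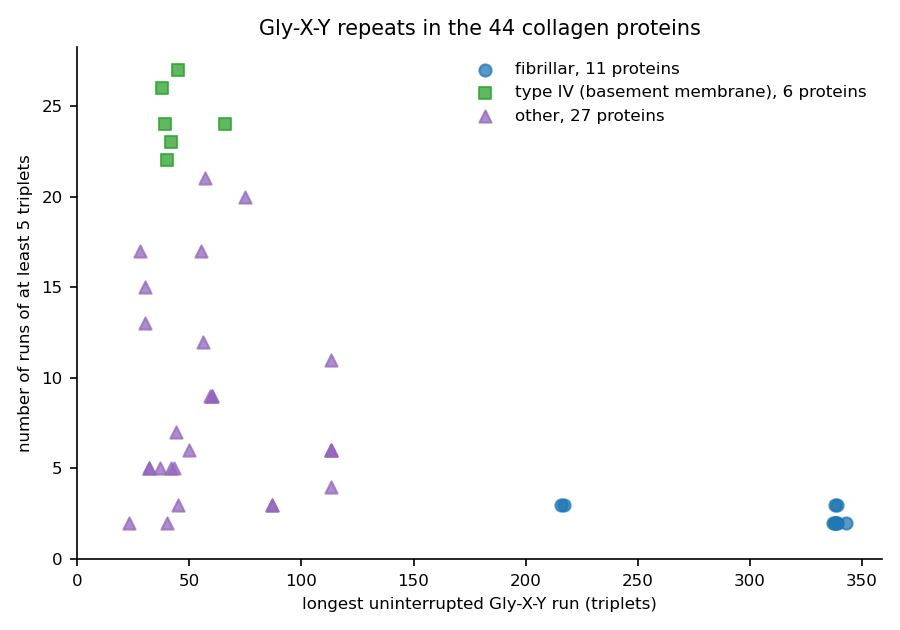
Longest uninterrupted Gly-X-Y run in triplets (x axis) against the number of runs of at least 5 triplets (y axis) for the 44 collagen proteins, by class. The 11 fibrillar chains lie at 216 to 343 triplets with 2 or 3 runs, and the 6 type IV chains at 38 to 66 triplets with 22 to 27 runs.

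By class, fibrillar genes made up most of the collagen reads. The 10 fibrillar genes with a usable interval summed to 8143 to 9565 CPM in siRNA-2, 10400 to 11580 CPM in siRNA-1 and 7903 to 8617 CPM in scrambled libraries, so siRNA-1 lay above both other groups and siRNA-2 overlapped scrambled. The 6 type IV genes summed to 1082 to 1171 CPM in siRNA-2, 1492 to 1558 CPM in siRNA-1 and 1279 to 1417 CPM in scrambled libraries, 3 ranges that do not overlap. Nearly all of that sum is COL4A1 and COL4A2, with 296836 and 460546 reads over all libraries. The other type IV genes had 363 to 6541 reads each. The 27 others summed to 2117 to 2298, 1997 to 2313 and 1868 to 2010 CPM in siRNA-2, siRNA-1 and scrambled libraries. Per kilobase of transcript, COL1A2, COL3A1 and COL5A2 were the highest in all 3 groups. COL1A2 averaged 511 ± 47.4 CPM per kilobase in siRNA-2, 783 ± 57.9 in siRNA-1 and 490 ± 22.4 in scrambled libraries (SD, n = 4). COL3A1 averaged 475 ± 35.6 CPM per kilobase in siRNA-2, 416 ± 18.1 in siRNA-1 and 410 ± 16.4 in scrambled libraries. The next was COL5A2, at 334 ± 15.9 in siRNA-2, 384 ± 4.82 in siRNA-1 and 334 ± 13.3 in scrambled libraries. COL1A1 had rank 12 in siRNA-2, 11 in siRNA-1 and 12 in scrambled libraries, at 16.7 ± 0.482, 28.3 ± 2.80 and 8.13 ± 0.207 CPM per kilobase in siRNA-2, siRNA-1 and scrambled libraries. These lengths are of transcripts while intervals hold introns, so the levels are a description.

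Of the 9 fibrillar genes tested, 5 rose and 1 fell in siRNA-2, with a median log2 fold change of 0.21, and 6 rose and 0 fell in siRNA-1, with a median of 0.54. At an unadjusted p under 0.05 the count falling in siRNA-1 was 1 (COL27A1). Of all intervals, 30.0% were called higher and 26.2% lower in siRNA-2, and 28.6% and 24.8% in siRNA-1. COL1A1 (chr17:50182939-50201649, hg38, minus strand) and COL1A2 (chr7:94394340-94431234, plus strand) encode the α1 and α2 chains of type I collagen, the main collagen of bone and tendon, whose trimer holds more α1 than α2. COL1A1 had 109, 110.0, 114 and 116 CPM in siRNA-2 cells, 171, 178, 206 and 207 in siRNA-1 cells and 52.6, 55.7, 55.3 and 55.1 in scrambled cells. Every siRNA-1 library was above every siRNA-2 library, and these above every scrambled one. The log2 fold change was 1.04 ± 0.053 (adjusted p = 9.46e-13) in siRNA-2 and 1.80 ± 0.054 (adjusted p = 2.65e-16) in siRNA-1, and the difference of siRNA-2 from siRNA-1 was -0.76 ± 0.052 (adjusted p = 5.41e-10). COL1A2 had 2386, 2852, 2935 and 2895 CPM in siRNA-2 cells, 4362, 3927, 4042 and 4617 in siRNA-1 cells and 2488, 2625, 2727 and 2756 in scrambled cells. siRNA-1 lay above both other groups, while siRNA-2 and scrambled libraries overlapped. It rose by 0.68 ± 0.065 in siRNA-1 (adjusted p = 2.91e-07), its change in siRNA-2 was 0.06 ± 0.065 (adjusted p = 0.434), and the siRNAs differed by -0.61 ± 0.065 (adjusted p = 2.96e-06).

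COL3A1, which forms type III collagen and joins type I in skin and vessel fibrils, had 2342, 2673, 2772 and 2740 CPM in siRNA-2 cells, 2309, 2239, 2232 and 2448 in siRNA-1 cells and 2176, 2233, 2282 and 2390 in scrambled cells. The groups overlapped, with siRNA-2 replicate 1 inside the scrambled range and its other 3 replicates above it. Its fold change was 0.21 ± 0.047 (adjusted p = 0.000443) in siRNA-2 and 0.02 ± 0.047 (adjusted p = 0.707) in siRNA-1, and siRNA-2 exceeded siRNA-1 by 0.19 ± 0.047 (adjusted p = 0.00295).

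Type V and XI chains start fibrils and limit their width. COL5A1 had 1033, 1143, 1197 and 1164 CPM in siRNA-2 cells, 1391, 1270, 1334 and 1495 in siRNA-1 cells and 892, 983, 949.9 and 941 in scrambled cells. The 3 groups did not overlap and siRNA-1 was the highest: the fold change was 0.27 ± 0.049 (adjusted p = 6.66e-05) in siRNA-2 and 0.54 ± 0.049 (adjusted p = 3.27e-09) in siRNA-1, and siRNA-2 was below siRNA-1 by 0.28 ± 0.049 (adjusted p = 0.000143). A non-coding gene, LOC101448202, overlaps 25454 bases of it and holds 35.5% as many reads. COL5A2 had 2222, 2362, 2495 and 2386 CPM in siRNA-2 cells, 2715, 2725, 2676 and 2759 in siRNA-1 cells and 2232, 2362, 2444 and 2416 in scrambled cells. Its siRNA-1 libraries lay above the other 8. The change was 0.00 ± 0.039 (adjusted p = 0.974) in siRNA-2, 0.20 ± 0.039 (adjusted p = 0.000101) in siRNA-1 and -0.20 ± 0.039 (adjusted p = 0.000264) between siRNA-2 and siRNA-1. COL5A3, a rarer type V chain, had 2.09, 2.82, 2.400 and 3.27 CPM in siRNA-2 cells, 2.22, 2.41, 2.31 and 2.25 in siRNA-1 cells and 1.41, 1.66, 1.11 and 1.700 in scrambled cells. It rose in both, by 0.85 ± 0.16 (adjusted p = 4.71e-05) in siRNA-2 and 0.64 ± 0.16 (adjusted p = 0.00131) in siRNA-1, without overlap with scrambled. COL11A1 had 24.6, 27.8, 27.4 and 26.01 CPM in siRNA-2 cells, 23.9, 24.4, 24.4 and 24.9 in siRNA-1 cells and 17.4, 15.5, 15.6 and 18.8 in scrambled cells. It also rose in both without overlap, by 0.65 ± 0.058 (adjusted p = 4.77e-10) and 0.54 ± 0.058 (adjusted p = 2.05e-08) in siRNA-2 and siRNA-1, and the siRNAs differed by 0.12 ± 0.057 (adjusted p = 0.123).

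COL27A1, a fibrillar chain of developing cartilage, was the fibrillar gene that fell in siRNA-2. It had 22.1, 28.5, 20.7 and 22.8 CPM in siRNA-2 cells, 36.8, 34.6, 26.01 and 27.9 in siRNA-1 cells and 40.7, 45.2, 35.9 and 36.6 in scrambled cells. All siRNA-2 libraries lay below the scrambled ones, and siRNA-1 overlapped both. It fell by 0.75 ± 0.14 in siRNA-2 (adjusted p = 0.00102); its change in siRNA-1 was -0.34 ± 0.14 (adjusted p = 0.0647), and it was called lower there without siRNA-1 replicate 1 (-0.42, adjusted p = 0.0298) or siRNA-2 replicate 2 (-0.34, adjusted p = 0.0352) and under 4 of 7 other settings. LOC105376224 overlaps 7923 bases of it, holds 31% as many reads and changed by -0.70 in siRNA-2 and -0.30 in siRNA-1. COL24A1 was not called, at -0.13 ± 0.16 and -0.25 ± 0.16 in siRNA-2 and siRNA-1.

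Of the 6 type IV genes, 1 rose and 2 fell in siRNA-2 (median log2 fold change -0.10) and 3 rose and 1 fell in siRNA-1 (median -0.02). The shares of all intervals called higher and lower were 30.0% and 26.2% in siRNA-2 and 28.6% and 24.8% in siRNA-1. COL4A1 (chr13:110148959-110307157, hg38, minus strand) and COL4A2 (chr13:110307284-110513223, plus strand) encode the chains of the trimer found in nearly all basement membranes, including those of brain vessels. The pair lies head to head, with annotated start sites 127 bases apart, so their promoters overlap. The 300-base windows from 250 bases before to 50 bases after each start site are shown because both genes were called lower with siRNA-2 and higher with siRNA-1. Sequences are from RefSeq on GRCh38.p14, each 5′ to 3′ on its own gene's strand, with the 226 bases that both windows hold in capitals:
COL4A1 (chr13:110307108-110307407, minus strand): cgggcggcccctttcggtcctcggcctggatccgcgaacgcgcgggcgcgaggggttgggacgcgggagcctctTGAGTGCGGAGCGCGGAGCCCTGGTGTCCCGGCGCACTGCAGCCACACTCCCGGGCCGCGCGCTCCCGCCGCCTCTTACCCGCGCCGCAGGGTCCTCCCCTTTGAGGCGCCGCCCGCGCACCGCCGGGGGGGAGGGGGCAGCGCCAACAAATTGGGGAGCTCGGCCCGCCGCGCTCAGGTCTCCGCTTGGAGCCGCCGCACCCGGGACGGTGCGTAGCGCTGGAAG
COL4A2 (chr13:110307034-110307333, plus strand): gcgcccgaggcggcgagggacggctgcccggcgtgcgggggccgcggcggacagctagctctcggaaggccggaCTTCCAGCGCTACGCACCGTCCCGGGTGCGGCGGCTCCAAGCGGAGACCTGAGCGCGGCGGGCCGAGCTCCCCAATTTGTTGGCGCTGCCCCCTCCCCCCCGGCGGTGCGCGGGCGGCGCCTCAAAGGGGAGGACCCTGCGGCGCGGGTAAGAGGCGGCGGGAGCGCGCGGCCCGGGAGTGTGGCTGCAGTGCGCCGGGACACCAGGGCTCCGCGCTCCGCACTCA

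COL4A1 had 372, 385, 413 and 391 CPM in siRNA-2 cells, 636, 630.3, 606 and 614 in siRNA-1 cells and 489, 550.4, 563 and 571 in scrambled cells. The 3 groups did not overlap. It fell by 0.48 ± 0.044 in siRNA-2 (adjusted p = 8.21e-10) and rose by 0.19 ± 0.044 in siRNA-1 (adjusted p = 0.00052), and siRNA-2 was below siRNA-1 by 0.67 ± 0.044 (adjusted p = 1.29e-11). COL4A2 had 688, 697, 736 and 709.5 CPM in siRNA-2 cells, 892, 840.1, 882 and 921 in siRNA-1 cells and 768, 845, 826 and 822 in scrambled cells. All siRNA-2 libraries were below the other 8, and siRNA-1 replicate 2 was inside the scrambled range. It fell by 0.20 ± 0.039 in siRNA-2 (adjusted p = 6.52e-05), and siRNA-2 was below siRNA-1 by 0.32 ± 0.039 (adjusted p = 4.38e-07). Its rise in siRNA-1 was 0.12 ± 0.039 (adjusted p = 0.013), and was not called without scrambled replicate 1 (0.07, adjusted p = 0.165) or siRNA-2 replicate 1 (0.09, adjusted p = 0.0551), with protein-coding intervals only (0.08, adjusted p = 0.0786) or with only the groups compared (0.10, adjusted p = 0.0553). COL4A2-AS1, which lies within COL4A2 on the opposite strand, holds 17.3% as many reads.

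COL4A5 and COL4A6, whose chains form the type IV network of smooth muscle and skin, are a second head-to-head pair, on chromosome X, with start sites 380 bases apart. Their windows share 121 bases, in capitals, and are shown for comparison with the first pair, since COL4A5 and COL4A6 were not called in the same comparisons against scrambled:
COL4A5 (chrX:108439588-108439887, plus strand): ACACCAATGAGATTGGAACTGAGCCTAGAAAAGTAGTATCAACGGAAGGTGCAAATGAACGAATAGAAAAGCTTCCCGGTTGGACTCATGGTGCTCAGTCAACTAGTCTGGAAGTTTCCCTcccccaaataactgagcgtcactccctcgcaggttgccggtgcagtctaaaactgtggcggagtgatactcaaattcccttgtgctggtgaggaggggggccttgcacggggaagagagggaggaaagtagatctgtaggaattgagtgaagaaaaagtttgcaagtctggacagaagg
COL4A6 (chrX:108439409-108439708, minus strand): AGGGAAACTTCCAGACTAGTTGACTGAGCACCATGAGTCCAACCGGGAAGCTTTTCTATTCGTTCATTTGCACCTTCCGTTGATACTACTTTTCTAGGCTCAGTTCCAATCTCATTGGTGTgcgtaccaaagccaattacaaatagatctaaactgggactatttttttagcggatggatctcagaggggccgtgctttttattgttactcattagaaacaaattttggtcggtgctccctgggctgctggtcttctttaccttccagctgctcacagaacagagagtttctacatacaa

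The windows of COL4A1 and COL4A2 were 76.7% and 77.7% G or C, those of COL4A5 and COL4A6 49.3% and 43.7%, and the median of 34943 RefSeq promoter windows of the same length was 58.7%. Motifs were searched on both strands, in all windows and in the 44 windows that 32 collagen genes had. The TATA box letters, TATAAA, stood in 11.6% of all windows and in 8 of the 44, with no match in the 4 shown. The CCAAT box letters, CCAAT, stood in 34.7% of all windows and in 14 of the 44, with 1 match each in COL4A1 and COL4A2, 2 in COL4A5 and 3 in COL4A6. The GC box letters, GGGCGG, stood in 44.9% of all windows and in 24 of the 44, with 2 matches in COL4A1, 1 in COL4A2 and 0 in COL4A5 and COL4A6. Overlapping windows share bases, so 1 match can be counted in both. COL4A5 had 10.7, 11.8, 11.3 and 11.96 CPM in siRNA-2 cells, 10.7, 10.1, 11.1 and 10.7 in siRNA-1 cells and 11.3, 11.5, 11.8 and 13.2 in scrambled cells. Its siRNA-1 libraries were below all scrambled ones, and siRNA-2 overlapped both. Its change was -0.06 ± 0.066 (adjusted p = 0.472) in siRNA-2 and -0.16 ± 0.067 (adjusted p = 0.0408) in siRNA-1, and the call in siRNA-1 was lost without any 1 of 8 libraries (siRNA-2 replicate 2, 3 or 4, siRNA-1 replicate 1, 2 or 4 or scrambled replicate 3 or 4), with values of -0.21 to -0.11 over all 12 leave-outs, and with no filter on low counts. COL4A6 was at 0.38 to 1.31 CPM: it rose in siRNA-2 by 0.84 ± 0.26 (adjusted p = 0.00809), its change in siRNA-1 was -0.17 ± 0.28 (adjusted p = 0.648), and the siRNAs differed by 1.01 ± 0.27 (adjusted p = 0.00458).

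COL4A3 and COL4A4 encode chains of the kidney filter membrane. COL4A4 had 8.75, 7.83, 9.81 and 9.64 CPM in siRNA-2 cells, 10.9, 10.6, 9.095 and 10.3 in siRNA-1 cells and 8.79, 8.71, 8.64 and 8.22 in scrambled cells. Its siRNA-1 libraries lay above the scrambled ones, with a fold change of 0.25 ± 0.079 (adjusted p = 0.00952), and its siRNA-2 value was 0.07 ± 0.079 (adjusted p = 0.483). RHBDD1, which overlaps 28918 bases of it, has 206% as many reads and changed by 0.48 in siRNA-2 and 0.41 in siRNA-1, and its part in the value was not tested. COL4A3 was not called, at -0.14 ± 0.25 in siRNA-2 and -0.47 ± 0.26 in siRNA-1.

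**Figure D3:**
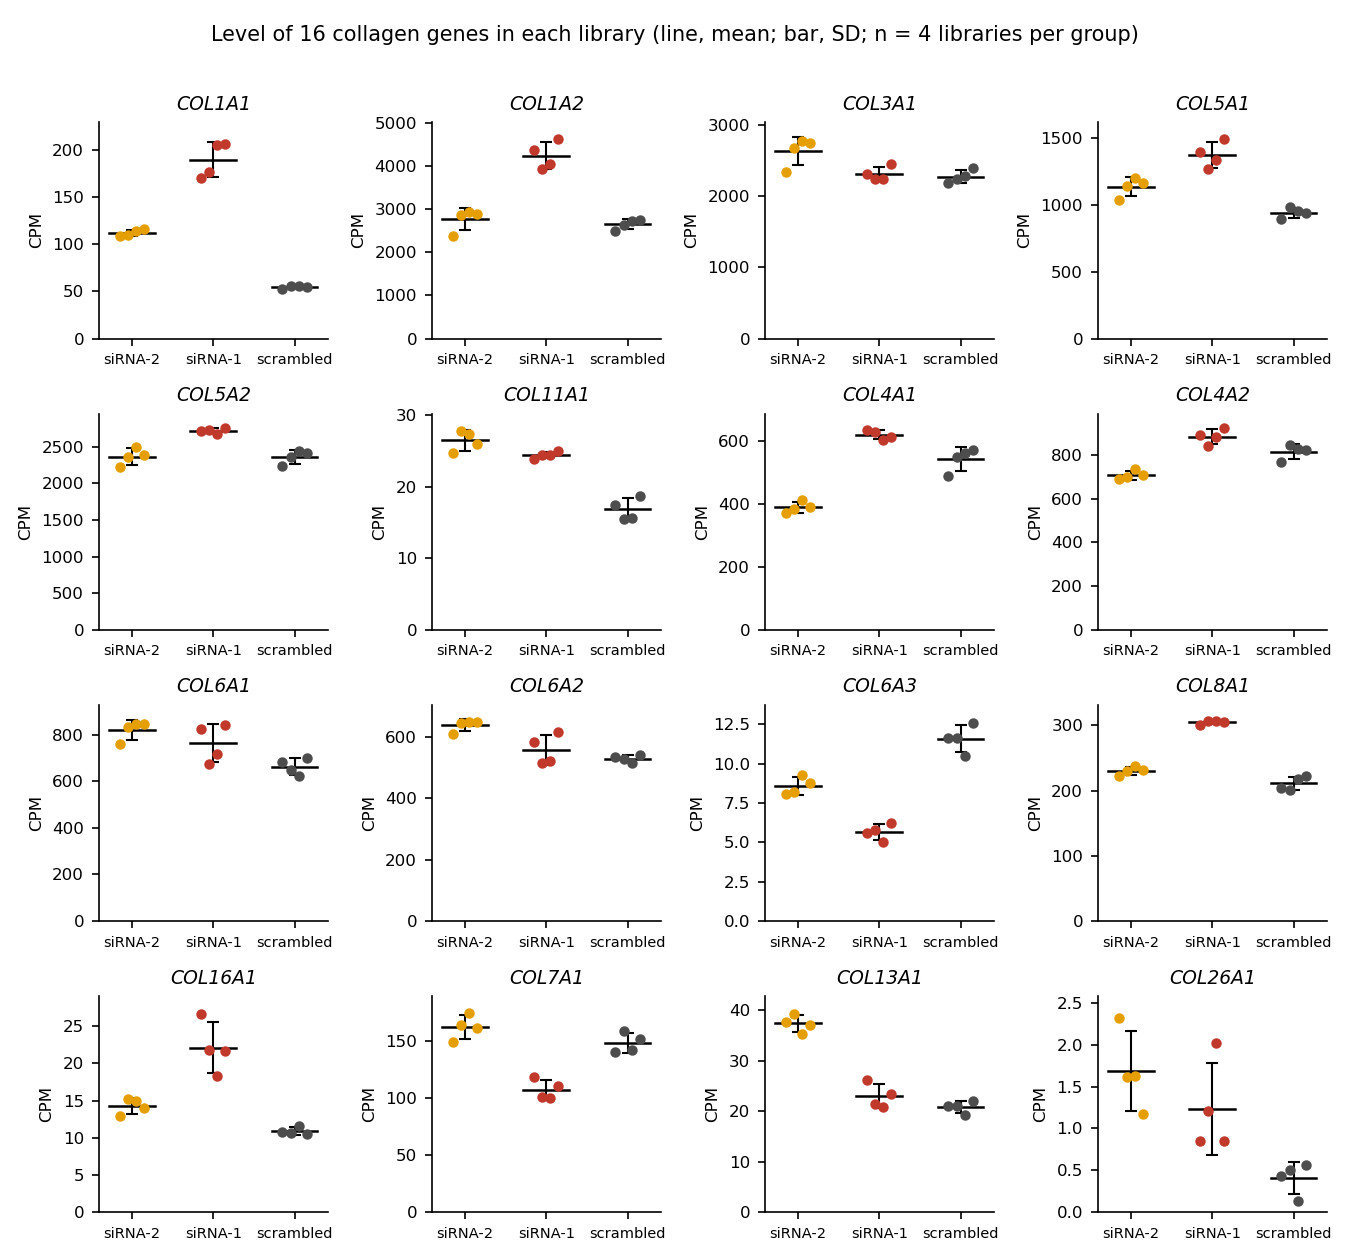
CPM (y axis, from 0) of 16 collagen genes in each library, for siRNA-2, siRNA-1 and scrambled cells; lines are means and bars SD over 4 libraries. COL1A1 separates the 3 groups completely, COL1A2 and COL8A1 are highest in siRNA-1, COL4A1 is lowest in siRNA-2, and COL6A3 is lowest in siRNA-1 and highest in scrambled cells.

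Among the 24 other collagens tested, 8 rose and 3 fell in siRNA-2 (median log2 fold change 0.09), and 9 rose and 5 fell in siRNA-1 (median 0.07). Over all intervals, 30.0% were called higher and 26.2% lower in siRNA-2, and 28.6% and 24.8% in siRNA-1. The 8 of 24 that rose in siRNA-2 are near the share of all intervals. Type VI collagen forms beaded filaments around cells from the products of COL6A1, COL6A2 and COL6A3. COL6A1 had 758, 834, 844 and 847 CPM in siRNA-2 cells, 823, 672, 716 and 839 in siRNA-1 cells and 683, 648, 621 and 700.5 in scrambled cells. Its siRNA-2 libraries were above all scrambled ones, by 0.31 ± 0.067 (adjusted p = 0.00121), while siRNA-1 replicate 2 fell within the scrambled range; the siRNA-1 value was 0.20 ± 0.067 (adjusted p = 0.0203), and its call was lost without siRNA-1 replicate 1 or 4 or scrambled replicate 1, 2 or 3 (lowest 0.15, highest adjusted p 0.059; without scrambled replicate 1, 0.19 and adjusted p = 0.0509). COL6A2 had 609, 645, 650.4 and 648 CPM in siRNA-2 cells, 584, 515, 522 and 615 in siRNA-1 cells and 534, 529.7, 514 and 541 in scrambled cells. It rose in siRNA-2 without overlap with scrambled, by 0.27 ± 0.046 (adjusted p = 2.24e-05); in siRNA-1 the change was 0.08 ± 0.046 (adjusted p = 0.167) and the groups overlapped. The remaining chain was lower with both siRNAs. COL6A3 (chr2:237317940-237434822, hg38, minus strand) had 8.06, 8.18, 9.27 and 8.78 CPM in siRNA-2 cells, 5.598, 5.77, 4.999 and 6.24 in siRNA-1 cells and 11.6, 11.6, 10.5 and 12.6 in scrambled cells. No 2 groups overlapped. It fell by 0.43 ± 0.079 in siRNA-2 (adjusted p = 4.04e-05) and by 1.03 ± 0.082 in siRNA-1 (adjusted p = 7.54e-11), and siRNA-2 exceeded siRNA-1 by 0.60 ± 0.083 (adjusted p = 3.21e-06). COL6A5 and COL6A6 were not called, with values from -0.33 to 0.40.

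Of the FACIT genes, whose chains sit on the surface of fibrils, COL16A1 had 12.96, 15.2, 15.02 and 14.1 CPM in siRNA-2 cells, 26.6, 21.8, 18.4 and 21.7 in siRNA-1 cells and 10.9, 10.6, 11.6 and 10.5 in scrambled cells. The 3 groups did not overlap. It rose by 0.39 ± 0.088 (adjusted p = 0.000797) in siRNA-2 and 1.02 ± 0.087 (adjusted p = 6.59e-09) in siRNA-1, and siRNA-2 was below siRNA-1 by 0.63 ± 0.085 (adjusted p = 1.09e-05). PEF1-AS1 overlaps 4734 bases of it with 31.2% as many reads, and changed by 0.06 in siRNA-2 and 0.68 in siRNA-1. COL12A1, found on type I fibrils of tendon, had 53.4, 50.9, 56.5 and 55.2 CPM in siRNA-2 cells, 58.3, 63.6, 62.5 and 64.1 in siRNA-1 cells and 50.9, 52.3, 48.95 and 53.8 in scrambled cells. It rose in siRNA-1 without overlap, by 0.27 ± 0.044 (adjusted p = 1.01e-05), its siRNA-2 value was 0.07 ± 0.044 (adjusted p = 0.187), and the siRNAs differed by -0.20 ± 0.044 (adjusted p = 0.000779). COL14A1, close in structure to COL12A1, had 2.44, 2.78, 3.46 and 2.75 CPM in siRNA-2 cells, 4.06, 3.67, 2.85 and 4.12 in siRNA-1 cells and 5.496, 5.38, 4.19 and 5.22 in scrambled cells. It fell in both without overlap with scrambled, by 0.82 ± 0.13 in siRNA-2 (adjusted p = 5.84e-06) and 0.46 ± 0.13 in siRNA-1 (adjusted p = 0.00354).

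Type IX collagen coats type II fibrils in cartilage. COL9A3 had 4.64, 4.38, 4.01 and 4.22 CPM in siRNA-2 cells, 5.36, 5.19, 5.46 and 4.81 in siRNA-1 cells and 3.54, 4.67, 3.93 and 4.13 in scrambled cells. It rose in siRNA-1 by 0.35 ± 0.10 (adjusted p = 0.00442), with siRNA-1 above all scrambled libraries, and its siRNA-2 value was 0.08 ± 0.10 (adjusted p = 0.513); TCFL5 overlaps 416 bases of it and has 546% as many reads. COL9A2 averaged 0.813 ± 0.119 CPM in siRNA-2, 0.883 ± 0.284 CPM in siRNA-1 and 0.3998 ± 0.0757 CPM in scrambled libraries (SD, n = 4). It rose by 1.02 ± 0.26 (adjusted p = 0.0017) in siRNA-2 and 1.14 ± 0.26 (adjusted p = 0.000628) in siRNA-1. ZMPSTE24 overlaps 2256 bases of COL9A2 with many more reads, with changes of -0.04 in siRNA-2 and 0.18 in siRNA-1. COL19A1 and COL21A1 were under 1.5 CPM in every library and not called; COL19A1 was called in siRNA-1 without scrambled replicate 3 (-0.60, adjusted p = 0.0402).

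COL8A1, a short-chain collagen of vessel walls and of the corneal basement membrane, had 222, 229, 238 and 231 CPM in siRNA-2 cells, 301, 306, 306 and 305 in siRNA-1 cells and 204, 201, 217 and 222 in scrambled cells. siRNA-1 stood well above both other groups, and siRNA-2 just above scrambled. It rose by 0.13 ± 0.037 (adjusted p = 0.00482) in siRNA-2 and 0.53 ± 0.037 (adjusted p = 6.05e-12) in siRNA-1, and siRNA-2 was below siRNA-1 by 0.40 ± 0.037 (adjusted p = 4.39e-09). Its partner COL8A2, at 0.93 to 1.77 CPM, gave 0.40 ± 0.17 (adjusted p = 0.0445) in siRNA-2 and 0.48 ± 0.17 (adjusted p = 0.0196) in siRNA-1. The siRNA-2 call was lost without siRNA-2 replicate 1, 2 or 4, siRNA-1 replicate 2 or scrambled replicate 1, 2 or 3 (0.33 to 0.53 over 12 leave-outs; without scrambled replicate 1, 0.40 and adjusted p = 0.0687), and under 5 of 7 other settings. The siRNA-1 call was lost without siRNA-1 replicate 2 or 4 or scrambled replicate 2 or 3 (0.40 to 0.60). ADPRHL2, which overlaps 3902 bases of COL8A2 with 1780% as many reads, changed by 0.39 in siRNA-2 and 0.34 in siRNA-1. COL10A1, the marker of hypertrophic cartilage, lies inside NT5DC1; its values were -0.14 ± 0.21 (adjusted p = 0.588) in siRNA-2 and 0.52 ± 0.21 (adjusted p = 0.0368) in siRNA-1, and the call in siRNA-1 was lost without siRNA-1 replicate 1, 3 or 4 or scrambled replicate 2 or 4 (0.44 to 0.58), and under 3 of 7 other settings (DESeq2, no filter and protein-coding intervals only, adjusted p of 0.0575 to 0.0612).

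COL7A1, which anchors skin to its basement membrane, had 149, 164, 174 and 161 CPM in siRNA-2 cells, 118, 101, 99.96 and 111 in siRNA-1 cells and 140.5, 158, 142 and 152 in scrambled cells. All siRNA-1 libraries were below the other 8. It fell by 0.46 ± 0.058 in siRNA-1 (adjusted p = 2.78e-06), its siRNA-2 value was 0.13 ± 0.057 (adjusted p = 0.0663), and siRNA-2 exceeded siRNA-1 by 0.59 ± 0.058 (adjusted p = 5.19e-07). The siRNA-2 value was called higher without any 1 of scrambled replicate 2, siRNA-1 replicate 1, siRNA-1 replicate 3 or siRNA-2 replicate 1, at 0.13 to 0.16. COL18A1, the source of the angiogenesis inhibitor endostatin, had 242, 262, 252 and 243 CPM in siRNA-2 cells, 301, 266, 260.5 and 304 in siRNA-1 cells and 269, 281, 262 and 272 in scrambled cells. The groups overlapped; it was -0.12 ± 0.046 (adjusted p = 0.0323) in siRNA-2 and 0.06 ± 0.046 (adjusted p = 0.279) in siRNA-1, and the siRNA-2 call was lost without siRNA-2 replicate 3 or 4 or scrambled replicate 2 or 4 (-0.14 to -0.10). SLC19A1 overlaps 12237 bases of it with 59.5% as many reads. The other multiplexin, COL15A1, was under 1 CPM and fell in siRNA-1 by 0.78 ± 0.25 (adjusted p = 0.0102), while its siRNA-2 value was 0.00 ± 0.24.

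Of the transmembrane collagens, COL13A1, which acts at the neuromuscular junction, had 37.7, 39.4, 35.3 and 37.2 CPM in siRNA-2 cells, 26.2, 21.4, 20.9 and 23.5 in siRNA-1 cells and 21.04, 21.1, 19.3 and 21.99 in scrambled cells. All siRNA-2 libraries lay above the other 8. It rose by 0.84 ± 0.061 (adjusted p = 1.63e-11) in siRNA-2, its siRNA-1 value was 0.14 ± 0.062 (adjusted p = 0.0623), and siRNA-2 exceeded siRNA-1 by 0.70 ± 0.061 (adjusted p = 2.58e-09); without scrambled replicate 4 or siRNA-1 replicate 3 the siRNA-1 value was called higher (0.17 and 0.18), as it was with a replicate block (0.14, adjusted p = 0.0442). The non-coding gene LOC107984242 overlaps 5117 bases of it with 11.9% as many reads. COL17A1, the hemidesmosome collagen of skin, had 3.400, 3.27, 3.23 and 2.62 CPM in siRNA-2 cells, 1.45, 1.52, 1.39 and 1.85 in siRNA-1 cells and 2.99, 2.57, 2.81 and 3.52 in scrambled cells. All siRNA-1 libraries were below the other 8. It fell by 0.94 ± 0.14 in siRNA-1 (adjusted p = 3.79e-06), its siRNA-2 value was 0.07 ± 0.13 (adjusted p = 0.672), and siRNA-2 exceeded siRNA-1 by 1.01 ± 0.14 (adjusted p = 3.80e-06). SLK overlaps 1100 bases of COL17A1, has 4300% as many reads and changed by -0.21 in siRNA-2 and -0.20 in siRNA-1. COL23A1 was not called, at 0.10 ± 0.10 and 0.04 ± 0.10 in siRNA-2 and siRNA-1. COL25A1 had under 0.6 CPM in every library and was not called, at 0.88 ± 0.65 and 1.01 ± 0.65; without scrambled replicate 1 it was called higher, at 2.17 in siRNA-2 (adjusted p = 0.00292) and 2.30 in siRNA-1 (adjusted p = 0.00194).

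Outside these classes, COL26A1, first described in testis and ovary of mice, averaged 1.68 ± 0.474 CPM in siRNA-2, 1.23 ± 0.547 CPM in siRNA-1 and 0.414 ± 0.189 CPM in scrambled libraries (SD, n = 4). Its siRNA libraries did not overlap the scrambled ones. It had the highest log2 fold change of the 39 genes in siRNA-2, 2.02 ± 0.36 (adjusted p = 0.000216), and the second highest in siRNA-1, 1.56 ± 0.37 (adjusted p = 0.00239). The siRNAs differed by 0.45 ± 0.32 (adjusted p = 0.328), which was called without siRNA-1 replicate 3 (0.78, adjusted p = 0.0456). COL28A1 was not called, at -0.26 ± 0.28 and -0.20 ± 0.28 in siRNA-2 and siRNA-1.

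Chains that assemble together did not always keep their ratio. The log2 ratio of COL1A1 to COL1A2 in CPM was -4.62 ± 0.12 in siRNA-2, -4.48 ± 0.15 in siRNA-1 and -5.60 ± 0.04 in scrambled libraries (SD, n = 4). Both siRNA groups lay above all scrambled libraries and overlapped each other. COL1A2 itself was called in siRNA-1 (0.68) and not called in siRNA-2 (0.06, adjusted p = 0.434). Per kilobase of transcript, COL1A2 exceeded COL1A1 by 30.6 ± 2.36 times in siRNA-2, 27.9 ± 3.00 times in siRNA-1 and 60.2 ± 1.81 times in scrambled libraries. The ratio of COL5A1 to COL5A2 was -1.06 ± 0.03 in siRNA-2, -0.99 ± 0.09 in siRNA-1 and -1.33 ± 0.05 in scrambled libraries, again above scrambled without overlap for both siRNAs. COL4A1 to COL4A2 was -0.86 ± 0.02 in siRNA-2, below the -0.51 ± 0.07 of siRNA-1 and the -0.59 ± 0.06 of scrambled libraries, so COL4A1 fell more than COL4A2. COL6A1 to COL6A2 was 0.36 ± 0.03, 0.45 ± 0.05 and 0.32 ± 0.05 in siRNA-2, siRNA-1 and scrambled libraries. Here siRNA-2 overlapped both other groups, and siRNA-1 lay above scrambled. COL6A3 to COL6A1 was -6.58 ± 0.07 in siRNA-2, -7.07 ± 0.15 in siRNA-1 and -5.84 ± 0.05 in scrambled libraries, and no 2 groups overlapped. The ratio of COL8A1 to COL8A2 overlapped between all groups. COL9A2 to COL9A3 was -2.41 ± 0.26 in siRNA-2, -2.62 ± 0.57 in siRNA-1 and -3.36 ± 0.27 in scrambled libraries, where siRNA-2 did not overlap scrambled. COL4A5 to COL4A6 was 3.35 ± 0.31 in siRNA-2, 4.25 ± 0.24 in siRNA-1 and 4.35 ± 0.68 in scrambled libraries, where siRNA-2 did not overlap siRNA-1.

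**Figure D4:**
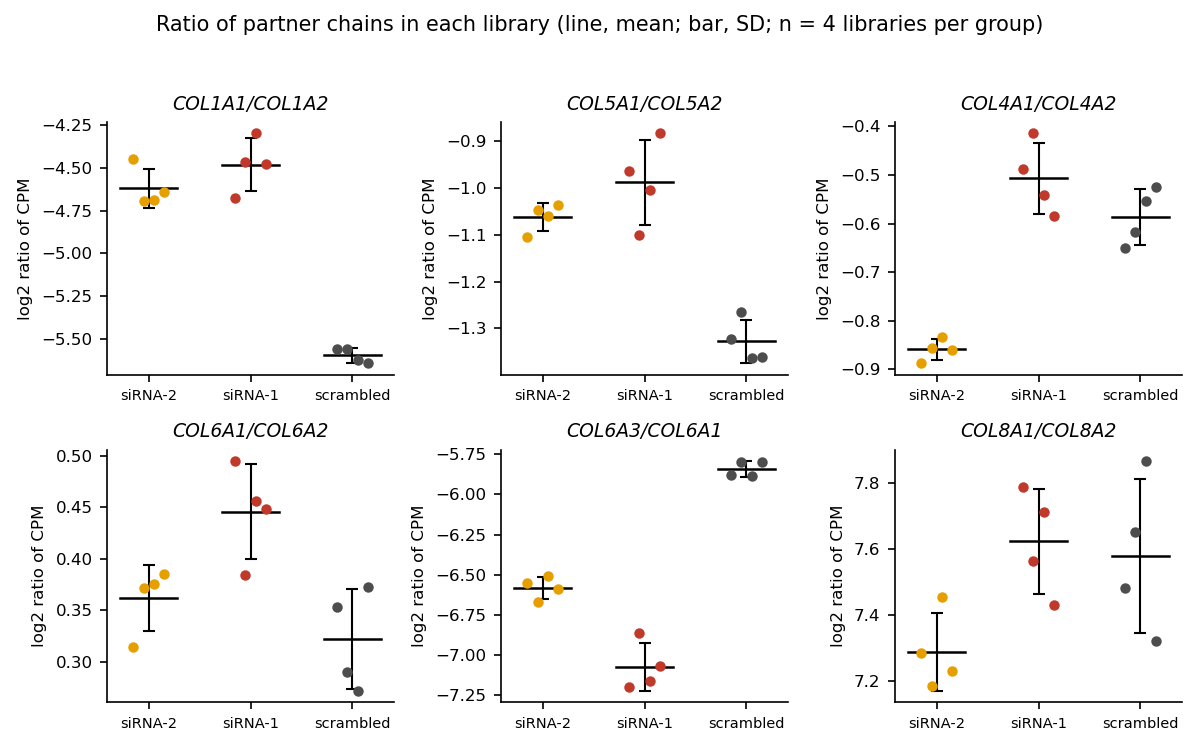
log2 ratio of CPM (y axis, not starting at 0) between 6 pairs of partner chains in each library, for siRNA-2, siRNA-1 and scrambled cells; lines are means and bars SD over 4 libraries. COL1A1/COL1A2 and COL5A1/COL5A2 are higher in both siRNA groups than in scrambled cells, and COL6A3/COL6A1 is lower.

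New collagen chains are hydroxylated on proline and lysine, folded with chaperones, exported, trimmed of their propeptides and cross-linked. Of 36 genes listed for these steps, 35 were tested. In siRNA-2, 18 of 35 rose and 8 fell (median log2 fold change 0.12), and in siRNA-1, 19 rose and 8 fell (median 0.24). Over all intervals, 30.0% were called higher and 26.2% lower in siRNA-2, and 28.6% and 24.8% in siRNA-1; the 8 of 35 that fell are near those shares. Without scrambled replicate 1, 16 rose in siRNA-2, where 7131 of 25543 intervals were called higher. There SEC13 (0.06, adjusted p = 0.207) and SEC31A (0.08, adjusted p = 0.0573) were no longer called higher. COLGALT2 (-0.34, adjusted p = 0.0562) was no longer called lower, and MIA3 (-0.14, adjusted p = 0.00486) was called lower. Between siRNA-2 and siRNA-1, 7 were higher and 9 lower, against 15.8% and 16.9% of all intervals and 18.6% and 22.7% of protein-coding ones. Of 15 hydroxylation genes, 9 rose and 3 fell with each siRNA. LOX, which cross-links fibrils outside the cell, had 78.9, 81.97, 90.6 and 87.2 CPM in siRNA-2 cells, 70.1, 73.6, 74.8 and 77.1 in siRNA-1 cells and 31.6, 30.1, 29.2 and 34.1 in scrambled cells. Both siRNA groups were above scrambled without overlap, by 1.44 ± 0.051 (adjusted p = 3.17e-17) in siRNA-2 and 1.24 ± 0.051 (adjusted p = 3.87e-16) in siRNA-1. SRFBP1 overlaps 13856 bases of LOX, with 35938 reads against 36663 in LOX, so the reads of the pair cannot be told apart. P4HA2, a catalytic subunit of prolyl 4-hydroxylase, rose by 0.76 ± 0.035 (adjusted p = 2.17e-15) in siRNA-2 and 0.81 ± 0.035 (adjusted p = 5.64e-16) in siRNA-1; P4HA2-AS1 overlaps it. PLOD1, a lysyl hydroxylase, rose by 0.66 ± 0.038 (adjusted p = 1.44e-13) and 0.61 ± 0.038 (adjusted p = 6.57e-13) in siRNA-2 and siRNA-1. P3H3, P3H4, P3H1 and PLOD3, further hydroxylases and partners, rose by 0.96, 0.55, 0.44 and 0.54 in siRNA-2 and by 0.79, 0.66, 0.53 and 0.47 in siRNA-1, with adjusted p of 3.02e-11 or less in siRNA-2 and 1.01e-10 or less in siRNA-1. P3H4 and FKBP10 overlap by 1578 bases.

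SERPINH1 (HSP47), the chaperone of the procollagen triple helix, moved in opposite directions. It had 579.6, 569, 561 and 549.8 CPM in siRNA-2 cells, 276, 275, 272 and 309 in siRNA-1 cells and 355, 344, 380.0 and 345 in scrambled cells. The 3 groups did not overlap: it rose by 0.67 ± 0.042 (adjusted p = 8.70e-13) in siRNA-2, fell by 0.33 ± 0.042 in siRNA-1 (adjusted p = 2.65e-07), and differed by 1.00 ± 0.042 (adjusted p = 7.16e-15) between siRNA-2 and siRNA-1. COLGALT1, which adds galactose to hydroxylysine, had 442, 474, 486 and 478 CPM in siRNA-2 cells, 353, 332, 347 and 379.8 in siRNA-1 cells and 513, 542, 526 and 511 in scrambled cells. It fell by 0.15 ± 0.041 in siRNA-2 (adjusted p = 0.00228) and by 0.57 ± 0.041 in siRNA-1 (adjusted p = 1.50e-11), below scrambled without overlap. TLL1, a tolloid-like protease of the family that removes C-propeptides, had 0.781, 0.519, 0.813 and 0.789 CPM in siRNA-2 cells, 2.42, 2.097, 1.34 and 1.997 in siRNA-1 cells and 1.45, 1.45, 1.36 and 1.24 in scrambled cells. Its siRNA-2 libraries were below the other 8, and siRNA-1 replicate 3 was within the scrambled range. It fell by 0.92 ± 0.20 in siRNA-2 (adjusted p = 0.000313) and rose by 0.52 ± 0.18 (adjusted p = 0.0199) in siRNA-1, a call lost without siRNA-1 replicate 1 or 2 or scrambled replicate 4 (0.41 to 0.66). Between siRNA-2 and siRNA-1, LOXL4 and MIA3 were higher by 0.30 and 0.21, and FKBP14, SEC13 and P4HA1 lower by 0.35, 0.20 and 0.19, with adjusted p of 0.000282 or less; FKBP14-AS1 overlaps FKBP14 and AIDA overlaps MIA3.

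**Figure D5:**
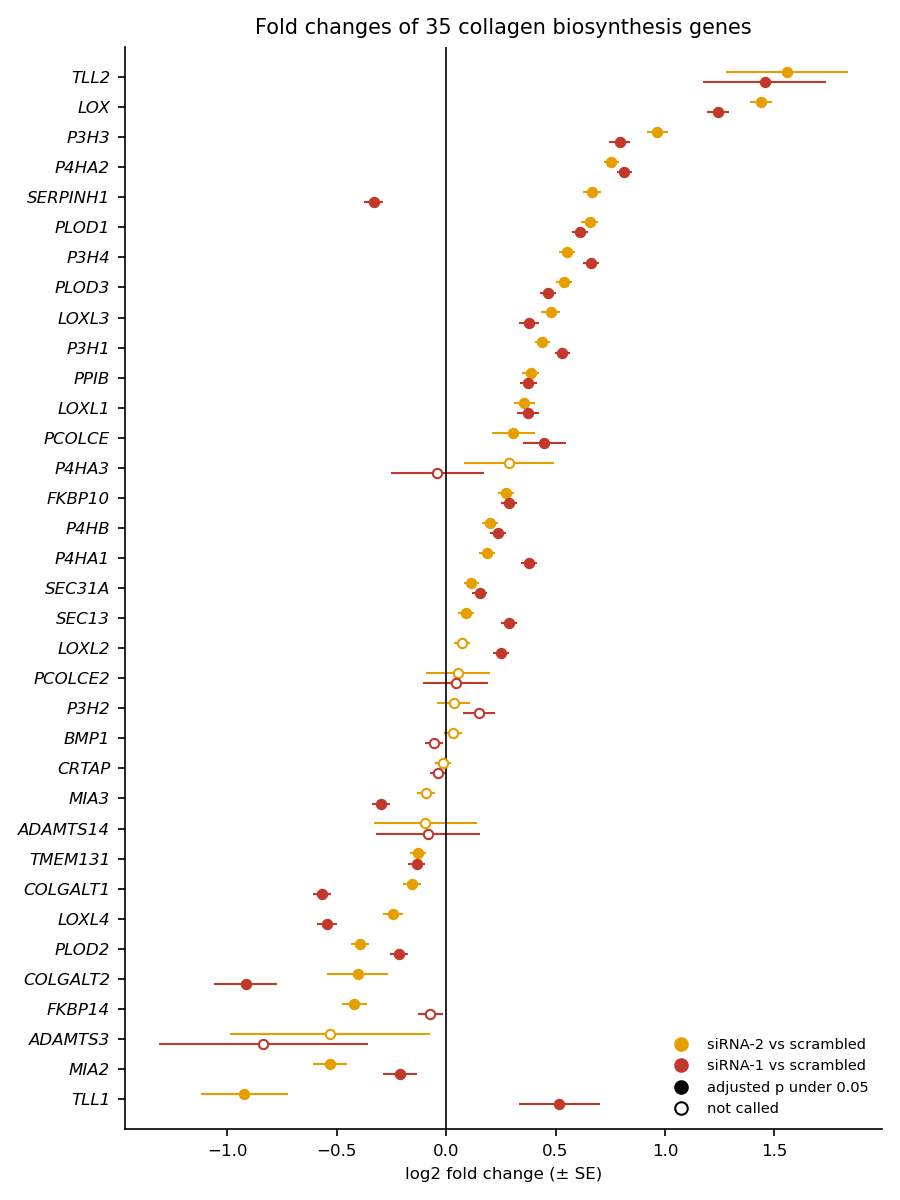
log2 fold changes (x axis, ± SE) of 35 collagen biosynthesis genes, with siRNA-2 in orange and siRNA-1 in red, each against scrambled, 4 libraries per group; filled points have an adjusted p under 0.05. LOX lies at 1.44 with siRNA-2 and 1.24 with siRNA-1, while SERPINH1 lies at 0.67 with siRNA-2 and -0.33 with siRNA-1.

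Of 12 genes listed as collagen receptors, 9 were tested. DDR1, LAIR1 and GP6 had no interval among those kept, so nothing is said of them here. In siRNA-2, 5 rose and 4 fell, in siRNA-1, 4 rose and 5 fell, and between siRNA-2 and siRNA-1, 3 were higher and 3 lower. Of all intervals, 56.1% were called in either direction in siRNA-2, 53.5% in siRNA-1 and 32.7% between siRNA-2 and siRNA-1. ITGA1, the integrin α1 subunit that prefers type IV collagen, had 47.8, 46.00, 47.01 and 47.2 CPM in siRNA-2 cells, 43.8, 44.6, 44.8 and 45.04 in siRNA-1 cells and 27.6, 30.1, 28.8 and 28.1 in scrambled cells. It rose without overlap by 0.71 ± 0.042 (adjusted p = 1.90e-13) in siRNA-2 and 0.64 ± 0.042 (adjusted p = 2.10e-12) in siRNA-1, and PELO, which shares 16129 bases with it, has 20314 reads against its 23117. DDR2, a receptor kinase for fibrillar collagen, had 104, 109, 114 and 107 CPM in siRNA-2 cells, 145, 143, 134 and 134 in siRNA-1 cells and 178, 201, 191 and 211 in scrambled cells. It fell by 0.85 ± 0.046 in siRNA-2 (adjusted p = 9.12e-14) and 0.49 ± 0.045 in siRNA-1 (adjusted p = 1.84e-09), and no 2 groups overlapped. ITGB1, the shared integrin β1 subunit, fell by 0.62 ± 0.049 in siRNA-2 (adjusted p = 1.49e-10) and 0.52 ± 0.048 in siRNA-1 (adjusted p = 4.17e-09). ADGRG1 (GPR56), a receptor for type III collagen in the brain of mice, fell by 0.50 ± 0.039 in siRNA-2 (adjusted p = 4.72e-11) and rose by 0.12 ± 0.039 (adjusted p = 0.0108) in siRNA-1, a call lost without scrambled replicate 1 (0.08, adjusted p = 0.0999). CD44 and ITGA2 did the reverse: CD44 changed by 0.30 ± 0.036 in siRNA-2 and -0.23 ± 0.036 in siRNA-1, and ITGA2 by 0.52 ± 0.051 and -0.28 ± 0.052, with adjusted p of 8.76e-08 or less in siRNA-2 and 0.000124 or less in siRNA-1. ITGA11, which binds type I collagen, rose by 0.22 ± 0.05 (adjusted p = 0.000665) in siRNA-2 and 0.47 ± 0.05 (adjusted p = 1.55e-08) in siRNA-1, and FEM1B overlaps it. ITGA10 had the largest fold changes of the 9 genes. It changed by -1.10 in siRNA-2 (adjusted p = 3.56e-05) and by -1.47 in siRNA-1 (adjusted p = 2.93e-06).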

How the data were processed

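The authors deposited 1 table of read counts per gene interval for 12 libraries of total RNA; Salmon and hg38 are named per the submitters' processing notes, with no version or role. Of 49731 intervals, 44661 were kept, among them 7 rows that repeat a name. Ultraconserved and random regions, ribosomal RNA, chromosome Y copies, older names and names that are only a number were removed. Also removed were intervals with identical counts, those over 1 Mb with no matching gene and those reaching more than 100 kb beyond the gene. Counts were fitted with edgeR 4.0.16 (robust quasi-likelihood, TMM; minimum count 10, minimum total 15) in R 4.3.3, with all 12 libraries and group as the only term, and p-values were adjusted by Benjamini-Hochberg over 25194 intervals at a threshold of 0.05. On simulated counts for siRNA-1 against scrambled over 24429 genes, the fit recovered 60 of 67 genes changed by 1.5 times and 65 of 67 changed by 2 times, and called 5 of 24229 unchanged genes. The changed genes there were few and all had an average log2 CPM of at least 1. In the data, 53.5% of intervals were called in siRNA-1, so the simulation does not give the rate of false calls. Of the tested collagen genes, 14 lie under that simulated level.

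The members and gene lists were chosen with earlier results of these data known. Collagen genes with an average log2 CPM of at least 1 and a call in any comparison (24 of 39 tested) were given with every library. Other members were given by fold change or range. From the other lists the genes with the smallest p were named, and ITGA10 for its fold change. Gly-X-Y runs came from translated GENCODE 29 coding sequences, in place of the RefSeq proteins planned. Interval starts may be off by 1 base. DESeq2 1.42.0, other filters, a replicate block and leaving out each library were alternatives.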

Additional observations from a re-analysis of the deposited data

Results flagged for a closer look

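Among 129 groups of 4 libraries, 7 had a library far from the other 3 by Dixon's test, which chance gives in about 1 of 20 groups. In siRNA-2 replicate 1, COL1A2 was at 2386 CPM, against 2852 to 2935 in the other siRNA-2 libraries, COL6A1 at 758 CPM, against 834 to 847, and COL6A2 at 609 CPM, against 645 to 650.4. In siRNA-1 replicate 2, COL15A1 was at 0.415 CPM, against 0.437 to 0.440, which is 20 reads against 19 to 21. In scrambled replicate 1, COL22A1 was at 0.638 CPM (29 reads, against 1 or 2 in each other scrambled library) and COL9A1 at 0.132 CPM (6 reads, against 0). COL9A1 was at 0.0694 CPM in siRNA-1 replicate 3 (3 reads, against 0).

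The effects of the 2 siRNAs differed in sign for COL4A1 and COL4A2. By edgeR's quasi-likelihood test of the difference itself, siRNA-2 minus siRNA-1 was -0.67 on the log2 scale for COL4A1 (adjusted p = 1.29e-11) and -0.32 for COL4A2 (adjusted p = 4.38e-07). For both genes every siRNA-2 library lay below every siRNA-1 library. That test does not ask whether the signs against scrambled are opposite. The COL4A2 rise in siRNA-1 was not called in some runs, among them the one without scrambled replicate 1.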

How the results depend on the processing

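The counts over all collagen, all biosynthesis and all receptor genes stayed within 1.5 times under every alternative run, and no fold change of a called gene reversed. Some class counts moved further. The 1 type IV gene lower in siRNA-1 (COL4A5) became 0 without any 1 of 8 libraries and with no filter. The 0 fibrillar genes lower in siRNA-1 became 1 (COL27A1) with the DESeq2 test, a minimum of 1 CPM in at least 4 libraries, protein-coding intervals only, a replicate block, or without siRNA-2 replicate 2 or siRNA-1 replicate 1. The 7 other collagens lower in siRNA-2 than in siRNA-1 became 4 without siRNA-2 replicate 2 or siRNA-1 replicate 1. Leaving out 1 library gave 13 to 15 collagen genes higher and 5 to 6 lower in siRNA-2, 15 to 18 higher and 5 to 6 lower in siRNA-1, and 7 to 9 higher and 10 to 14 lower between siRNA-2 and siRNA-1. Each leave-out tested 25534 to 25654 intervals. Of these, 6805 to 7598 were higher and 6204 to 6947 lower in siRNA-2, and 6421 to 7208 and 5846 to 6788 in siRNA-1. Between the siRNAs, 3457 to 4261 intervals were higher and 3541 to 4267 lower. For collagen genes in the same order, the other settings gave 13 to 14 and 6 to 7, 16 to 19 and 5 to 7, and 7 to 8 and 12 to 14. Those settings tested 15222 to 39740 intervals. Of these, 5028 to 7542 were higher and 5158 to 7110 lower in siRNA-2, and 4844 to 7164 and 4930 to 6613 in siRNA-1. Between the siRNAs, 3132 to 4250 intervals were higher and 3448 to 4263 lower. Calls held in all 12 leave-outs for 18 of 20 genes in siRNA-2, 19 of 24 in siRNA-1 and 17 of 22 between the siRNAs. The calls lost between the siRNAs were COL10A1 (without siRNA-2 replicate 2 or siRNA-1 replicate 1), COL14A1 (without siRNA-2 replicate 1, 2 or 4 or siRNA-1 replicate 1, 2 or 4), COL15A1 (without siRNA-2 replicate 1 or 4), COL27A1 (without siRNA-2 replicate 1, 3 or 4, siRNA-1 replicate 1 or 2 or scrambled replicate 1, 3 or 4), COL9A3 (without siRNA-2 replicate 2, 3 or 4 or siRNA-1 replicate 1, 2 or 3). With a replicate block, 14 rose and 6 fell in siRNA-2, 19 rose and 7 fell in siRNA-1, and 8 were higher and 13 lower between them. Of 25194 intervals with that block, 7542 rose and 6546 fell in siRNA-2, and 7164 and 6209 in siRNA-1. Between the siRNAs, 3920 intervals were higher and 4217 lower. COL27A1 was then called lower in siRNA-1 (-0.34, adjusted p = 9.09e-05). The labels do not say whether the replicate numbers pair the libraries. Deviations from the group mean over all tested intervals correlated over 0.1 in 0 of 12 same-numbered pairs. A correlation over all intervals does not settle whether libraries were paired. Taking the longest interval of a name could not differ, as each collagen name has 1 interval. Genes under about 1 CPM are limited by depth.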
